A study of Mus musculus with 18 samples.

Results

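Neutrophils make leukotriene B4, a lipid that draws more neutrophils, and smaller amounts of prostaglandins, both from arachidonic acid. The 8 genes described here encode the enzymes and the helper protein of these routes, and they were chosen by symbol: Pla2g4a, Alox5, Alox5ap, Lta4h, Ptgs1, Ptgs2, Ptges3 and Alox15. All 8 were rows of a count table of 17941 genes, and 7 of them passed the filter on low counts and were tested among 10104 genes. Alox15 did not pass it. The table covered neutrophils of untreated female mice of the lupus-prone strain NZBWF1/J (given as NZBWF1J in the strain label) at 3 ages, 14, 20 and 26 weeks, with 6 libraries per age, each labelled a biological replicate. The submitters' design text calls the ages stages of disease, and the labels do not say whether a library came from 1 animal or several. Cells came from spleen and were sorted as DAPI-, Ly6b+, CD11b+, Ly6G+ and Ly6C intermediate. All 3 ages carry the same genetic background and none was treated, so each comparison is between ages of this strain alone, with no healthy strain beside it. Values are CPM, counts scaled to a common library total, and p-values set the difference between ages against the spread between these libraries. In such sorted bulk samples, fewer cells of a type and less RNA per cell cannot be told apart.

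Arachidonic acid is cut from membrane phospholipids by cytosolic phospholipase A2 (Pla2g4a). Arachidonate 5-lipoxygenase (Alox5), helped by the membrane protein FLAP (Alox5ap), turns it into leukotriene A4, which leukotriene A4 hydrolase (Lta4h) converts to leukotriene B4. The cyclooxygenases, Ptgs1 (largely constitutive) and Ptgs2 (inducible), make prostaglandin H2 instead, from which synthases make the separate prostaglandins and thromboxane. Ptges3 is a cytosolic prostaglandin E synthase that is also known as p23, a co-chaperone of Hsp90. Alox15 is a lipoxygenase of resident macrophages and eosinophils in mice.

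The libraries held 5546624 to 17256379 counts. The library of 20 weeks replicate 3 stood apart, with counts in 8119 genes against 10357 to 13164 in the others. All 12 neutrophil markers listed had counts at every age, with summed levels of 136354 to 195751 CPM at 14 weeks, 48334 to 119440 CPM at 20 weeks and 149726 to 292099 CPM at 26 weeks. Ngp and Ltf gave the largest terms of these sums at every age. Between 14 and 20 weeks 9 of these 12 markers fell and 1 rose, and between 20 and 26 weeks 7 rose and 1 fell. The markers did not all follow the sum: from 14 to 20 weeks mean Csf3r went from 2027 to 4689 CPM and mean Cxcr2 from 1842 to 1703 CPM. Of 15 monocyte and macrophage markers 11 were in the table, and their summed level was 199.9 to 516.3 CPM at 14 weeks, 562.4 to 1176 CPM at 20 weeks and 212.6 to 516.6 CPM at 26 weeks. Among the markers at 0 in every library of an age were C1qa, C1qb, Cx3cr1 and Ccr2 at 14 weeks, Mertk at 20 weeks, and C1qa and C1qb at 26 weeks. The 3 of these markers that could be tested all rose from 14 to 20 weeks and fell from 20 to 26 weeks.

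Gene length also moved with age. At 26 against 14 weeks the median log2 fold change was 0.49 over the shortest quartile of the tested genes (57 to 2528 exon bases) and -0.21 over the longest quartile. For this reason the members' exon lengths matter to what follows: 1420 bases for Alox5ap, 2217 for Ptges3, 3884 for Ptgs1, 4106 for Alox5, 4580 for Ptgs2, 6102 for Lta4h and 6391 for Pla2g4a. A fit that corrected each library for gene length, added after seeing the data, is given wherever it changed a call.

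Of the 7 tested members, 4 changed with age in the test over all 3 ages together, Alox5, Alox5ap, Lta4h and Ptges3, where 23.0% of all tested genes did. Between single ages, 1 member of 7 changed at 20 against 14 weeks (10.2% of all genes), 2 of 7 at 26 against 14 weeks (11.0%) and 2 of 7 at 26 against 20 weeks (16.0%). The libraries of the ages compared did not overlap for 0 of 7 members (6.90% of all genes), 2 of 7 (6.76%) and 1 of 7 (5.96%). The median log2 fold change of the tested members was -0.33, 0.43 and -0.39 in these 3 comparisons, beside -0.021, 0.045 and 0.053 over all tested genes. Each age enters a pair of these comparisons, so the comparisons share samples and are not independent. The members did not move as a block: in the leukotriene branch the level of Alox5 was lower at 26 weeks than at 14 weeks, that of Alox5ap was higher, and Lta4h was lower at 20 weeks than at 26 weeks.

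**Figure D1:**
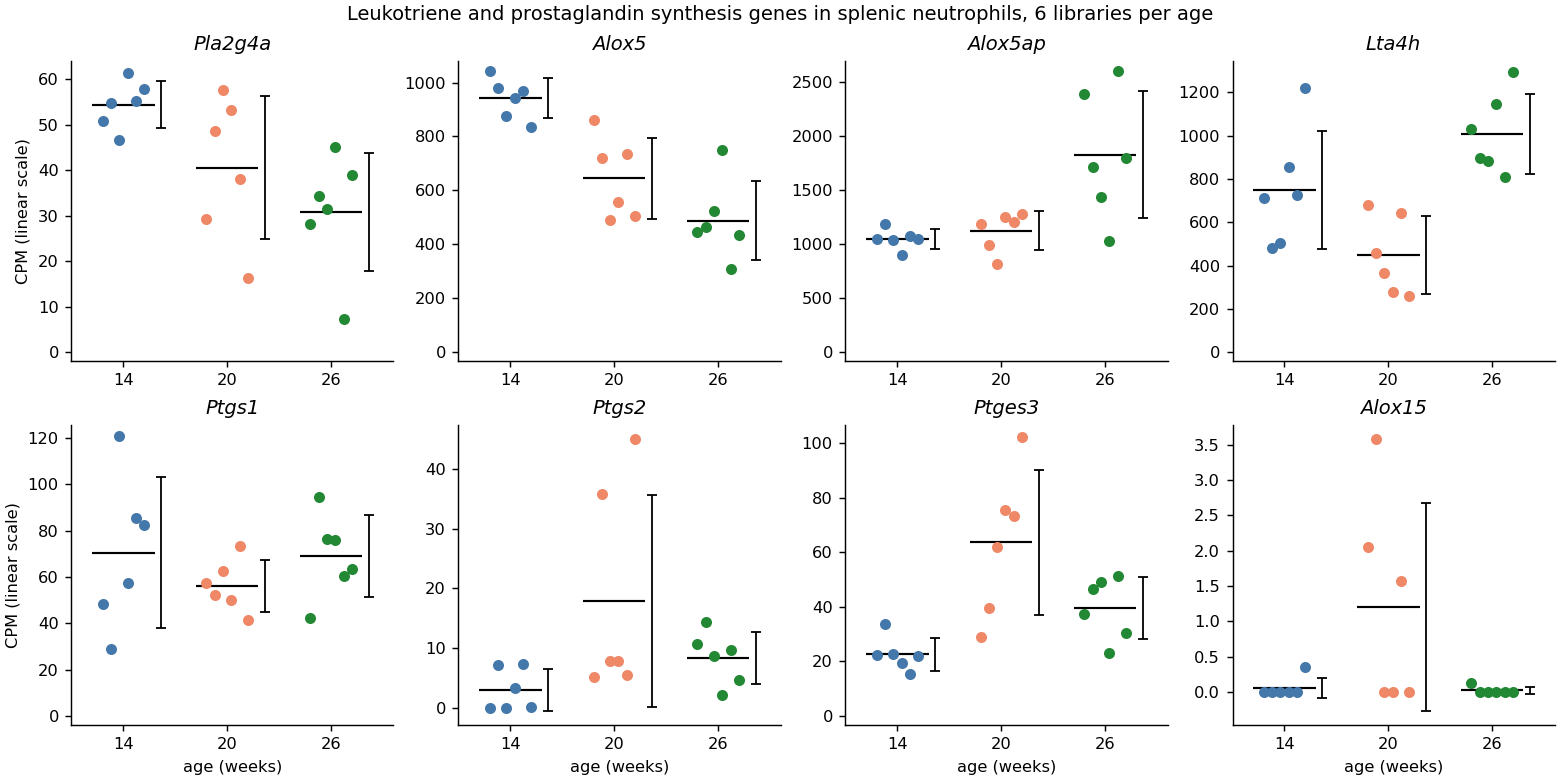
CPM of the 8 members (vertical axes, linear scale) against age in weeks, 1 point per library, with the mean of 6 libraries as a line and the SD as a bar beside it. The highest Alox5 level at 26 weeks (750 CPM) lies below the lowest at 14 weeks (837 CPM), while the mean of Ptges3 is highest at 20 weeks and Alox15 lies at or near 0 in most libraries.

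Per length, the mean levels of Alox5ap, Alox5 and Lta4h exceeded those of the other members at every age. Over 14, 20 and 26 weeks the mean level of Alox5ap was 737, 789 and 1285 CPM per kb of exon, that of Alox5 was 229, 157 and 119, and that of Lta4h was 123, 73.3 and 165. Ptgs1 had 18.2, 14.5 and 17.7 CPM per kb, Ptges3 10.2, 28.7 and 17.9, and Pla2g4a 8.51, 6.34 and 4.83. Ptgs2 had 0.646, 3.90 and 1.82 CPM per kb and Alox15 0.0235, 0.490 and 0.00805. Alox5ap was thus first at every age. Alox5 came next at 14 weeks, where its lowest library (203.8 CPM per kb) lay just above the highest for Lta4h (200.2). At 26 weeks the ranges per kb of Alox5 (74.6 to 182.7) and Lta4h (132.3 to 212.0) overlapped, so their order per kb did not exceed the spread. Before division by length, Lta4h (807 to 1294 CPM) lay above Alox5 (306 to 750 CPM) without overlap. The order thus depends on the lengths used, exon unions that can be longer than any single transcript. At 20 weeks the lowest library for Lta4h (42.7) also lay below the highest for Ptges3 (46.2), both in replicate 6. Ptgs1 and Ptges3 overlapped at every age, and Pla2g4a overlapped both at 14 weeks.

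The promoters of Alox5, Lta4h, Ptges3 and Ptgs2 are shown because the first 3 had 3 different age patterns and the Ptgs2 enzyme is the classic inducible one. Each is the 250 bases before the gene's start in RefSeq (GRCm38.p6), written 5′ to 3′ on the gene's strand (RefSeq and GENCODE place the starts of Lta4h and Ptges3 at slightly different bases), and capitals mark matches to a motif searched on both strands.
Alox5, chr6:116461179-116461428, minus strand: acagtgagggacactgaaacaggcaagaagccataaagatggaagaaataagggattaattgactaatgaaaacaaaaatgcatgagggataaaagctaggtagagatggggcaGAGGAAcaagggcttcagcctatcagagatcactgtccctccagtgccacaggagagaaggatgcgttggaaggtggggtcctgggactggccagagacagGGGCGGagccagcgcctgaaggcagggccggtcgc
Lta4h, chr10:93453146-93453395, plus strand: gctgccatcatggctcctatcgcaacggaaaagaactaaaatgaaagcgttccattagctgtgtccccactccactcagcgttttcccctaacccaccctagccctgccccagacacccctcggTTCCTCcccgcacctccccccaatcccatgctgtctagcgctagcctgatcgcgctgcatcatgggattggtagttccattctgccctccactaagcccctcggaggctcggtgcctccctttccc
Ptges3, chr10:128058732-128058981, plus strand: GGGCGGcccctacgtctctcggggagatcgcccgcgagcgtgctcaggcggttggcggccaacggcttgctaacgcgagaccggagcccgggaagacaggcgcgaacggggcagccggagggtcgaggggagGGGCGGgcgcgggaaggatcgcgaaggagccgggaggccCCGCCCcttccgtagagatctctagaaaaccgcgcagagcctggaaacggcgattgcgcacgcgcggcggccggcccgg
Ptgs2, chr1:150099781-150100030, plus strand: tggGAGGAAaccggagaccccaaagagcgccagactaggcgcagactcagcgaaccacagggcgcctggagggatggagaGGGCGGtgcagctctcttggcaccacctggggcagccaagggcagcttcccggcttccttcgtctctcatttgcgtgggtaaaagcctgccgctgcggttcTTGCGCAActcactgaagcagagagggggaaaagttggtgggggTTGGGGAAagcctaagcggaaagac
Alox5 held 1 GC box (GGGCGG, from -35 to -30 relative to the start) and 1 PU.1 core (GAGGAA, from -136 to -131). Lta4h held 1 PU.1 core, on the opposite strand, from -126 to -121, and no GC box. Ptges3 held 3 GC boxes, at -250 to -245, -118 to -113 and, on the opposite strand, -79 to -74. Ptgs2 held 2 C/EBP matches (TTNNGNAA), at -69 to -62 and -25 to -18, with 1 GC box and 1 PU.1 core. Of 32851 promoters of this length in RefSeq, 32.74% held a GC box, 23.25% a PU.1 core and 36.85% a C/EBP match. None of the 4 windows held TATAAA (12.37% of all promoters), the CRE core TGACGT (6.469%), the E-box CACGTG (6.021%) or the AP-1 motif TGANTCA (6.749%). These are letter matches in a window, not measured binding. The windows end at the RefSeq start and bases on either side were not searched. A motif absent from a window is thus not shown to be absent from the gene's promoter.

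The enzyme that releases arachidonic acid, Pla2g4a (chr1:149829618-149961290, minus strand, as are all gene positions here in GRCm38, GENCODE M21), passed the test in no pair of ages. Its levels were 46.5, 54.9 and 61.3 CPM (lowest, median and highest of 6 libraries) at 14 weeks, 16.4, 43.4 and 57.6 CPM at 20 weeks and 7.33, 32.8 and 45.1 CPM at 26 weeks. Every library of 26 weeks lay below every library of 14 weeks, while those of 20 weeks spanned both. The log2 fold change was -0.81 ± 0.33 (SE) at 26 against 14 weeks with an adjusted p of 0.124. It was called by 1 alternative fit, limma-voom with sample weights (adjusted p = 0.0204, range over all alternatives 0.0204 to 0.26). At 20 against 14 weeks it was -0.42 ± 0.32 (adjusted p = 0.493), and 0.067 after the length correction. At 26 against 20 weeks it was -0.39 ± 0.33 (adjusted p = 0.478).

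Alox5, the 5-lipoxygenase itself (chr6:116410077-116461178, minus strand), fell between 14 and 26 weeks. Its levels were 837, 957 and 1043 CPM (lowest, median, highest) at 14 weeks, 490.2, 639 and 862 CPM at 20 weeks, and 306, 456 and 750.2 CPM at 26 weeks. All 6 libraries of 26 weeks lay below all 6 of 14 weeks. The highest of the 26-week libraries was replicate 4, and the next highest was at 525 CPM, within the range of 20 weeks. Alox5 was 1.93-fold lower at 26 than at 14 weeks, a log2 fold change of -0.95 ± 0.18 (SE) with an adjusted p of 0.00329 by edgeR's quasi-likelihood test. It kept this call in all 29 alternative fits, with log2 fold changes from -1.11 to -0.82.

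The steps between neighbouring ages were smaller. At 20 against 14 weeks the Alox5 log2 fold change was -0.55 ± 0.18 (adjusted p = 0.0573), with all 6 libraries of 20 weeks below the 14-week median but with overlap. It was below 0.05 in 7 of 29 alternatives, whose adjusted p ran from 0.0218 to 0.237. At 26 against 20 weeks the change was -0.40 ± 0.18 (adjusted p = 0.138). After the length correction it was -0.68 with an adjusted p of 0.00792 (range over alternatives 0.00792 to 0.313). That fit also lowered the median of all genes in this comparison.

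Alox5ap encodes FLAP, the small membrane protein that presents arachidonic acid to the lipoxygenase (chr5:149264767-149288153, plus strand). It was higher at 26 weeks, the age at which Alox5 was lowest. Levels were 897, 1046 and 1182 CPM at 14 weeks, 813, 1194 and 1280.3 CPM at 20 weeks and 1023, 1753 and 2601 CPM at 26 weeks. In 5 of 6 libraries of 26 weeks Alox5ap exceeded every library of both younger ages, and the exception was again replicate 4. It was 1.74-fold higher at 26 than at 14 weeks, 0.80 ± 0.18 on the log2 scale (adjusted p = 0.00774), and 1.63-fold higher than at 20 weeks, 0.70 ± 0.18 (adjusted p = 0.0106). Between 14 and 20 weeks the change was 0.097 ± 0.18 (adjusted p = 0.818). Leaving out any 1 of 18 libraries ended neither call, with adjusted p up to 0.0258 and 0.0349. The length correction ended both: 0.24 (adjusted p = 0.487, range over alternatives 0.000211 to 0.487) against 14 weeks and 0.093 (adjusted p = 0.752, range 0.000992 to 0.752) against 20 weeks. That fit also lowered the median of all genes in both comparisons. Alox5ap is the shortest of the members.

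A further row of the table, WI1-1993I8.1, held 46.4% to 51.3% as many counts as Alox5ap in each of the 18 libraries. Its symbol had no match in the annotation used here, so it is not placed, and reads shared between it and Alox5ap cannot be told apart from reads of its own. An antisense gene, Gm19719, shares 189 exon bases with Alox5ap on the opposite strand. The library kit does not mark strand, so sense and antisense reads cannot be told apart. Ptgs1 shares 148 exon bases with Gm43621 in the same way.

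Lta4h, the hydrolase that finishes leukotriene B4 (chr10:93453411-93484875, plus strand), was lowest at 20 weeks. Levels were 480.5, 718 and 1221 CPM at 14 weeks, 261, 413 and 679 CPM at 20 weeks and 807, 964 and 1294 CPM at 26 weeks. Every library of 26 weeks lay above every library of 20 weeks, with no overlap. The 14-week libraries overlapped both. Lta4h was 2.26-fold higher at 26 than at 20 weeks, 1.17 ± 0.25 on the log2 scale with an adjusted p of 0.00357. It passed in all 29 alternatives, the length correction included (0.94, adjusted p = 0.00798, range 5.46e-05 to 0.012). At 20 against 14 weeks the value was -0.74 ± 0.25 (adjusted p = 0.0668), below 0.05 in 5 of 29 alternatives (range 0.0237 to 0.277). At 26 against 14 weeks it was 0.43 ± 0.25 (adjusted p = 0.333). The summed neutrophil markers were also lowest in median at 20 weeks and the monocyte markers highest. Ngp and Ltf gave the largest terms of the neutrophil sum, while mean Csf3r, in the same list, was highest at 20 weeks. The part of cell mixture in the Lta4h values was not tested.

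**Figure D2:**
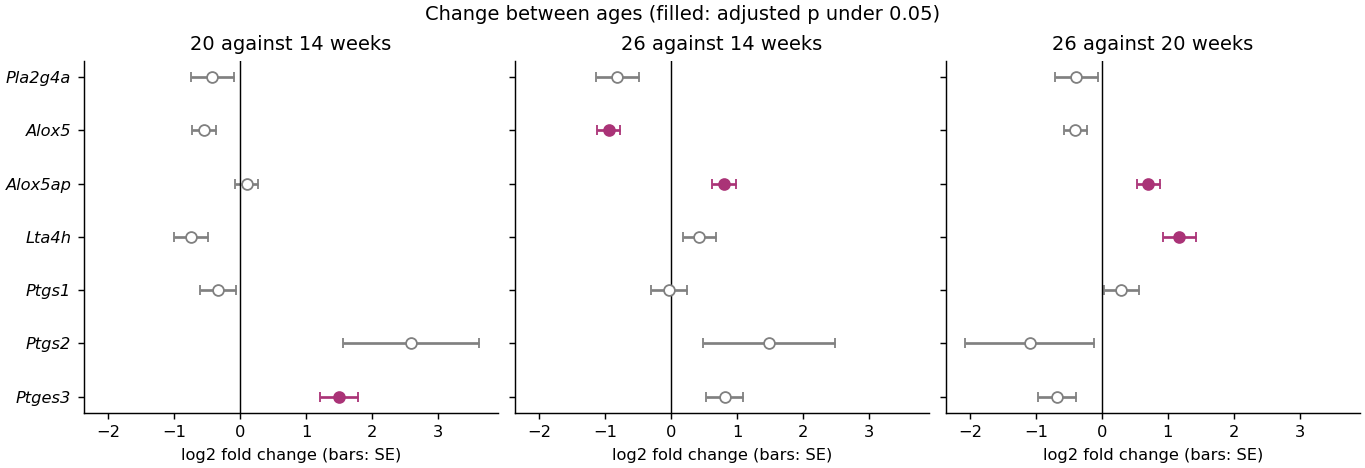
Log2 fold change (horizontal axes) of the 7 tested members in the 3 pairs of ages, with SE bars and filled points where the adjusted p was under 0.05. Only Ptges3 is filled at 20 against 14 weeks, Alox5 and Alox5ap at 26 against 14 weeks, and Alox5ap and Lta4h at 26 against 20 weeks.

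Ratios of levels per kb within each library show how the leukotriene members shifted against each other, and are given as a description with no test. The ratio of Alox5ap to Alox5 was 2.75, 3.31 and 3.61 (lowest, median, highest) at 14 weeks, 3.97, 4.76 and 7.35 at 20 weeks and 3.94, 11.3 and 24.6 at 26 weeks. All libraries of the later ages lay above all libraries of 14 weeks in this ratio, and at 26 weeks it varied most between libraries. The highest value, in 26 weeks replicate 5, came from the library with the lowest Alox5 and the highest Alox5ap of its age, which was also the shallowest library. The ratio sets a short transcript against a longer one, and the shift with gene length moved with it.

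The ratio of Lta4h to Alox5 had medians of 0.481 at 14 weeks, 0.466 at 20 weeks and 1.43 at 26 weeks. Each library of 26 weeks (1.03 to 2.00) exceeded each younger library, whose highest ratio was 0.982. Alox5 and Pla2g4a, which act in sequence, kept a median ratio of 27.6, 26.5 and 25.3 at the 3 ages, with a range that widened from 22.5 to 31.9 at 14 weeks to 17.4 to 65.0 at 26 weeks.

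**Figure D3:**
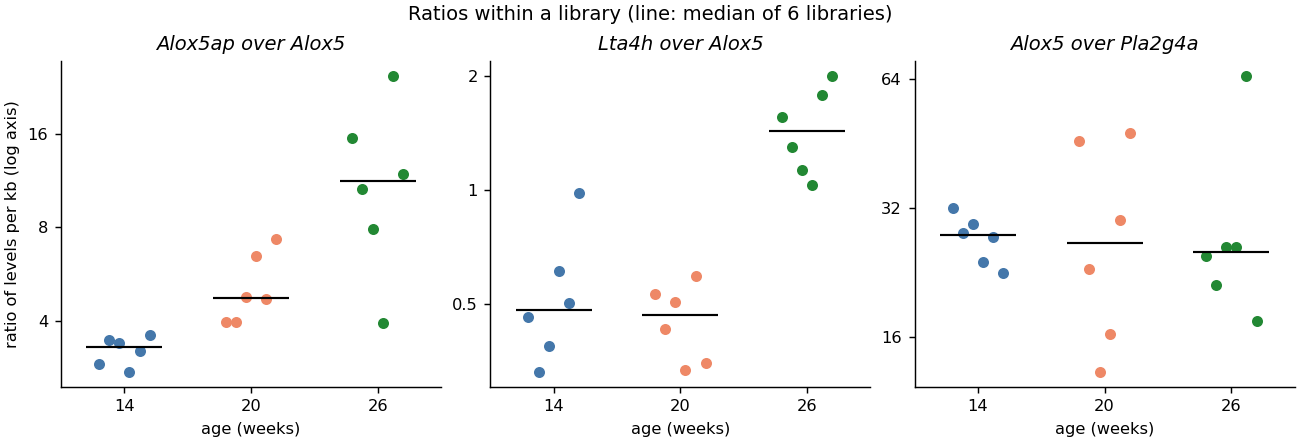
Ratio of levels per kb within a library (vertical axes, log scale) against age in weeks, 1 point per library, with the median of 6 libraries as a line. Alox5ap over Alox5 and Lta4h over Alox5 are highest at 26 weeks, and Alox5 over Pla2g4a keeps a similar median at all ages.

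Ptgs1, the constitutive cyclooxygenase (chr2:36230426-36252272, plus strand), changed in no comparison. Levels were 29.0, 69.9 and 121 CPM at 14 weeks, 41.3, 54.8 and 73.4 CPM at 20 weeks and 42.5, 69.8 and 94.7 CPM at 26 weeks. The 3 ages overlapped throughout, and the 14-week libraries spanned the range of all others. The log2 fold change was -0.33 at 20 against 14 weeks (95% interval -0.86 to 0.20, adjusted p = 0.528), -0.034 at 26 against 14 weeks (-0.56 to 0.50, adjusted p = 0.965) and 0.30 at 26 against 20 weeks (-0.23 to 0.83, adjusted p = 0.52). The intervals still allow changes of the size seen for other members.

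The inducible enzyme Ptgs2 (chr1:150100031-150108227, plus strand) was sparse and uneven. At 14 weeks 2 of 6 libraries had no count, the median was 1.67 CPM and the highest 7.31 CPM. At 20 weeks the lowest, median and highest were 5.09, 7.84 and 45.1 CPM, and at 26 weeks 2.07, 9.16 and 14.3 CPM. Only 2 libraries of 20 weeks, replicates 2 (35.8 CPM) and 6 (45.1 CPM), stood above 15 CPM, and in those 2 the ratio of Ptgs2 to Ptgs1 per kb was 0.582 and 0.926, against a median of 0.12 for that age. The ages overlapped. The log2 fold change at 20 against 14 weeks was 2.59 ± 1.03, with an adjusted p of 0.128 and a p of 0.0213 before adjustment. DESeq2 and limma-voom put it below 0.05 (adjusted p = 0.0364 and 0.0305, range over alternatives 0.0305 to 0.288). At 26 against 14 weeks it was 1.49 ± 1.00 (adjusted p = 0.417, and 0.0434 by limma-voom, range 0.0434 to 0.579), and at 26 against 20 weeks -1.10 ± 0.98 (adjusted p = 0.512).

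Ptges3, the prostaglandin E synthase and Hsp90 co-chaperone (chr10:128058954-128077272, plus strand), rose from 14 to 20 weeks, the one member called in that comparison by edgeR. Levels were 15.5, 22.1 and 33.8 CPM at 14 weeks, 29.1, 67.6 and 102 CPM at 20 weeks and 23.1, 42.1 and 51.3 CPM at 26 weeks. Every library of 20 weeks exceeded the 14-week median, although the lowest of them lay below the highest 14-week library. Ptges3 was 2.82-fold higher at 20 than at 14 weeks, 1.49 ± 0.29 on the log2 scale with an adjusted p of 0.00266, and passed in all 29 alternatives (1.31 to 1.66). At 26 against 14 weeks the value was 0.81 ± 0.28 (adjusted p = 0.0727), below 0.05 in 7 of 29 alternatives (range 0.0243 to 0.511). At 26 against 20 weeks it was -0.68 ± 0.28 (adjusted p = 0.11). After the length correction, which also lowered the median of all genes here, it was -1.18 (adjusted p = 0.0144, range 0.0144 to 0.27). Markers of several other cell types also had their highest median sum at 20 weeks, but not all did. For 7 T cell markers of 8 listed the median sums were 134, 66.1 and 187 CPM, lowest at 20 weeks, where Cd3e, Cd8a and Cd5 were at 0. The NK cell, platelet, erythroid, endothelial and stromal, and basophil and mast cell sums were also not highest in median at 20 weeks. The 3 tested monocyte markers rose and then fell. Of 7 plasma cell markers 6 were in the table. Their summed levels were 0 to 13.9 CPM at 14 weeks, 17.9 to 1708 CPM at 20 weeks and 1.98 to 479 CPM at 26 weeks. In replicates 1 to 6 of 20 weeks the sums were 245, 17.9, 929, 785, 199 and 1708 CPM. Ptges3 in the same libraries was at 29.1, 39.5, 61.9, 75.7, 73.4 and 102 CPM. Both were highest in replicate 6, but the order of the others differed. Sdc1 was at 0 at 14 weeks and Tnfrsf17 at 26 weeks. The 8 dendritic cell markers summed to 0.172 to 17.6, 31.9 to 80.2 and 4.40 to 24.7 CPM, with Clec9a, Siglech, Cd209a and Ccr9 at 0 at 14 weeks, Xcr1 at 20 weeks, and Flt3, Clec9a and Siglech at 26 weeks. For 7 B cell markers of 8 listed the sums were 1.77 to 27.7, 2.78 to 80.8 and 12.02 to 31.3 CPM, with Cr2 at 0 at 14 and 26 weeks and Fcer2a at 20 weeks. The part of these cells in the Ptges3 values was not tested. The annotation holds 1 pseudogene named after Ptges3, whose reads could be counted to either.

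Alox15 (chr11:70344152-70352031, minus strand) was all but undetected. It had 4 counts at 14 weeks, all in replicate 6, and 1 count at 26 weeks, in replicate 1. At 20 weeks it had 90 counts, in replicates 1, 2 and 5 (2.05, 3.58 and 1.58 CPM), with none in replicates 3, 4 and 6. No test was made. Of 8 eosinophil markers 7 were in the table, with summed levels of 9.16 to 24.9 CPM at 14 weeks, 37.1 to 78.5 CPM at 20 weeks and 17.3 to 42.4 CPM at 26 weeks. Prg2 and Il5ra were at 0 at 20 and 26 weeks and Ear6 at 20 weeks. The 3 libraries of 20 weeks with Alox15 counts had eosinophil sums of 37.1, 48.9 and 38.9 CPM and monocyte sums of 562.4, 1004 and 806 CPM. The other 3 had 47.2, 78.5 and 70.3 CPM and 733, 1176 and 1045 CPM. The largest terms of the monocyte sum at 20 weeks were Csf1r, Cd68 and Adgre1. C1qa, C1qb and Vcam1 had 2, 3 and 4 counts at that age, each with 5 of 6 libraries at 0. The part of such cells in the Alox15 values was not tested.

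Beyond the members, 88 further genes of these pathways were listed, of which 68 were in the table and 56 were tested. At 20 against 14 weeks 6 rose and 7 fell, at 26 against 14 weeks 4 rose and 1 fell, and at 26 against 20 weeks 7 rose and 8 fell. Of all tested genes, 10.2% were called at 20 against 14 weeks, 11.0% at 26 against 14 weeks and 16.0% at 26 against 20 weeks. The same shares stand beside the counts of each list below. The median log2 fold changes of the 56 genes were 0.13, -0.017 and -0.11. Of these 33 calls, those of Fpr2 and Daglb at 20 against 14 weeks and of Ptgr1, Ptger2, Mapk14 and Zfp36 at 26 against 20 weeks were lost when any of several single libraries was left out.

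Among the 10 tested genes for leukotriene synthesis, export and breakdown, 2 rose at 20 against 14 weeks and 3 at 26 against 14 weeks, while 1 rose and 1 fell at 26 against 20 weeks. Cyp4f18, the neutrophil P450 enzyme that inactivates leukotriene B4, ran against Lta4h. Its levels were 758, 1205 and 1744 CPM at 14 weeks, 2353, 2674 and 3613 CPM at 20 weeks and 582, 897 and 1548 CPM at 26 weeks, so that no 20-week library overlapped either other age. Cyp4f18 rose by 1.23 ± 0.23 (adjusted p = 0.00225) and then fell by 1.59 on the log2 scale (SE 0.23, adjusted p = 0.000296). Mgst2, a microsomal glutathione transferase that can make leukotriene C4, rose by 2.83 ± 0.50 between 20 and 26 weeks (adjusted p = 0.000935), from 11.3 ± 7.6 to 80.4 ± 52.7 CPM (SD, n = 6). Its rise at 26 against 14 weeks (1.84 ± 0.48, adjusted p = 0.0181) was lost without 26 weeks replicate 5 (adjusted p = 0.0586) and under the length correction (0.0509). Gpx4, a lipid peroxidase that restrains lipoxygenases, rose at 26 against 14 weeks (0.81 ± 0.20, adjusted p = 0.0122) but not under the length correction (adjusted p = 0.484).

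Ltc4s, the synthase of leukotriene C4, had no count in any library of 14 weeks, 80 counts at 20 weeks and 34 at 26 weeks, in 5 of 6 libraries each. Its pooled level was set against a floor of 3 counts over the 6 libraries of 14 weeks. On that basis Ltc4s was at least 26.7-fold higher at 20 weeks and at least 12.8-fold higher at 26 weeks. The floor stands for counting error alone, and these folds leave out the spread between libraries. The edgeR fit gave log2 fold changes of 6.62 (adjusted p = 0.0102) and 5.37 (adjusted p = 0.0245) against 14 weeks. With no count at 14 weeks, Ltc4s passed the low-count filter only through libraries of the later ages, so the p-values are no independent support. The later call was lost under the length correction (adjusted p = 0.0528) and without 26 weeks replicate 2 (0.0543). Its highest library reached 2.19 CPM. All 9 basophil and mast cell markers listed were in the table, and they summed to 2069 to 2999 CPM at 14 weeks, 1562 to 2841 CPM at 20 weeks and 883 to 2022 CPM at 26 weeks, mostly from Hdc, which neutrophils also express. Mcpt8, Ms4a2, Cd200r3 and Prss34 were at 0 at 14 and 26 weeks and had 79, 99, 215 and 50 counts at 20 weeks. Fcer1a had 9, 292 and 1 counts at the 3 ages, Gata2 2, 122 and 0, and Cpa3 24, 175 and 4. The part of such cells in the Ltc4s values was not tested.

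Of the 4 tested receptors for leukotrienes and lipoxins, 2 fell at 20 against 14 weeks and the same 2, Ltb4r1 and Fpr2, rose at 26 against 20 weeks. Ltb4r1, the high-affinity receptor for leukotriene B4, had 496, 667 and 813 CPM at 14 weeks, 260.2, 344 and 539 CPM at 20 weeks and 685, 867 and 1148 CPM at 26 weeks. Like Lta4h, it was higher in every library of 26 weeks than in any of 20 weeks. It fell by 0.78 on the log2 scale (SE 0.19, adjusted p = 0.0127) and rose by 1.24 ± 0.19 (adjusted p = 0.000451), the latter 0.65 under the length correction (adjusted p = 0.0145). Fpr2, a receptor for formyl peptides, annexin A1 and lipoxin A4, fell by 0.84 (SE 0.25, adjusted p = 0.0335) and rose by 1.86 ± 0.25 (adjusted p = 0.000168) in the same steps. Its fall was lost in 8 of 18 fits without 1 library (adjusted p up to 0.0755) and under the length correction (0.0867), and its rise at 26 against 14 weeks (1.02 ± 0.25, adjusted p = 0.0114) under the length correction (0.406).

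**Figure D4:**
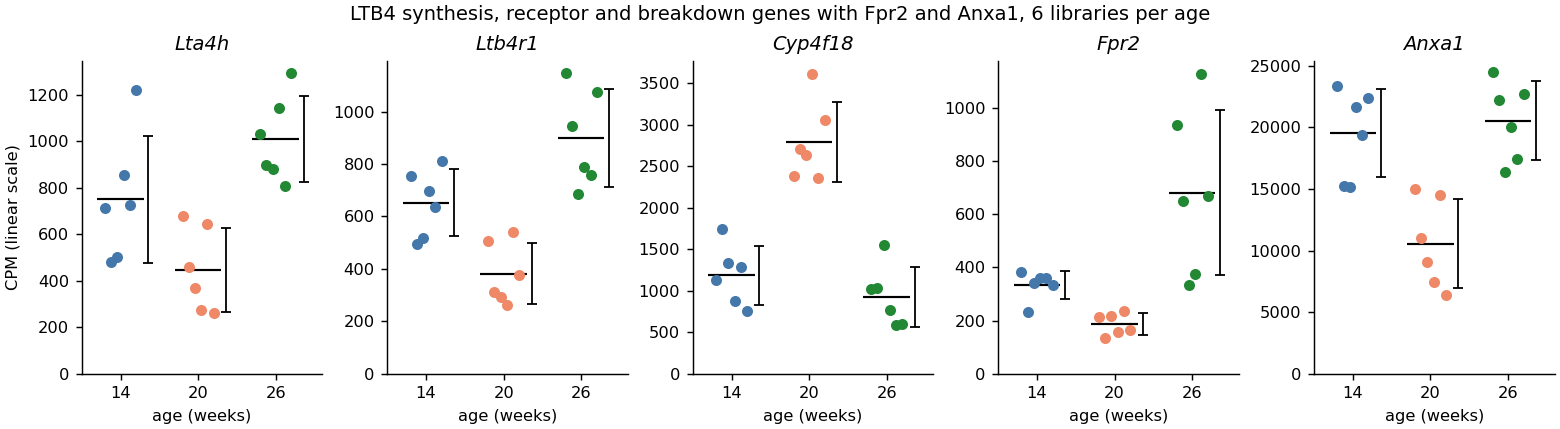
CPM (vertical axes, linear scale) against age in weeks for Lta4h and for 4 pathway genes chosen for display after their values were seen, 1 point per library, with the mean of 6 libraries as a line and the SD as a bar. Cyp4f18 is highest at 20 weeks in all 6 libraries (2353 CPM or more), while the means of Lta4h, Ltb4r1, Fpr2 and Anxa1 are lowest at 20 weeks.

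Among the 10 tested genes of phospholipases and arachidonate release, 2 rose and 1 fell at 20 against 14 weeks, none changed at 26 against 14 weeks (0 by an unadjusted p under 0.05, DESeq2 or limma-voom), and 1 rose and 3 fell at 26 against 20 weeks. Pla2g7, which inactivates platelet-activating factor, rose from 970 ± 465 to 2829 ± 638 CPM (SD, n = 6) between 14 and 20 weeks (1.54 ± 0.33, adjusted p = 0.00466) and fell by 1.24 on the log2 scale by 26 weeks (SE 0.32, adjusted p = 0.0119). Mgll, a lipase of monoacylglycerol, went the other way, by -0.98 ± 0.26 (adjusted p = 0.0204, lost without 20 weeks replicate 4 at 0.0519) and 1.04 ± 0.26 (adjusted p = 0.00953). Daglb, a diacylglycerol lipase, had log2 fold changes of 0.59 ± 0.16 (adjusted p = 0.0247, up to 0.0629 without 1 library) and -0.65 ± 0.16 (adjusted p = 0.0104) in the same steps. Mboat7, which returns arachidonic acid to phosphatidylinositol, fell by 0.66 at 26 against 20 weeks (SE 0.17, adjusted p = 0.0109).

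None of the 6 tested prostaglandin and thromboxane synthases changed in any pair of ages by edgeR, and 0 had an unadjusted p under 0.05 or were called by DESeq2 or limma-voom. The inducible prostaglandin E synthase Ptges was at 9.62 ± 3.23, 4.10 ± 3.92 and 6.40 ± 3.76 CPM (SD, n = 6) over 14, 20 and 26 weeks, and thromboxane synthase, Tbxas1, at 33.8 ± 8.5, 35.5 ± 16.4 and 30.7 ± 11.8 CPM. Ptges3, a member, was called by edgeR at 20 against 14 weeks. Hpgds, the prostaglandin D synthase of haematopoietic cells, had no count at 20 and 26 weeks. Hpgd, which begins the breakdown of prostaglandins, had counts in 1 of 18 libraries. Ptgr1, a prostaglandin reductase, rose at 26 against 20 weeks (2.57 ± 0.84, adjusted p = 0.0423, up to 0.0871 without 1 library). Of 6 tested prostaglandin and thromboxane receptors, 1 fell at 20 against 14 weeks and 1 at 26 against 20 weeks. These were the prostacyclin receptor Ptgir (-0.94 ± 0.22, adjusted p = 0.00818, 0.2 under the length correction) and the prostaglandin E2 receptor Ptger2 (-0.80 ± 0.27, adjusted p = 0.0451, up to 0.0891 without 1 library).

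Of the 7 kinases and RNA-binding regulators listed for these enzymes, 1 rose and 2 fell at 20 against 14 weeks, none changed at 26 against 14 weeks (4 had an unadjusted p under 0.05, and DESeq2 called 1 and limma-voom 3), and 1 rose and 2 fell at 26 against 20 weeks. Anxa1, a phospholipid-binding protein known to restrain phospholipase A2, had 19533 ± 3597, 10568 ± 3623 and 20544 ± 3180 CPM (SD, n = 6). It fell by 0.89 on the log2 scale at 20 weeks (SE 0.20, adjusted p = 0.00638) and rose by 0.96 ± 0.20 at 26 weeks (adjusted p = 0.0025, 0.0592 under the length correction). Zfp36, the RNA-binding protein tristetraprolin that destabilises Ptgs2 mRNA, rose by 1.23 ± 0.22 (adjusted p = 0.00137) and fell by 0.76 (SE 0.21, adjusted p = 0.0194, up to 0.0586 without 1 library). The kinase Mapk3 fell by 0.56 at 20 against 14 weeks (SE 0.13, adjusted p = 0.00817, 0.153 under the length correction). Mapk14, the p38 kinase, fell by 0.60 at 26 against 20 weeks (SE 0.17, adjusted p = 0.0225, up to 0.069 without 1 library).

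Ptges3 was set beside 10 partners of the Hsp90 machine, of which 1 rose and 1 fell at 20 against 14 weeks, 1 fell at 26 against 14 weeks, and 1 rose and 1 fell at 26 against 20 weeks. Hsp90ab1, the constitutive Hsp90, had 302 ± 26, 147 ± 33 and 278 ± 67 CPM (SD, n = 6) at the 3 ages. It fell by 1.04 on the log2 scale between 14 and 20 weeks (SE 0.16, adjusted p = 0.000709), the step at which Ptges3 rose, and rose by 0.92 ± 0.16 by 26 weeks (adjusted p = 0.001). Hspa8, the constitutive Hsp70, rose by 0.58 ± 0.15 (adjusted p = 0.0166) and then fell by 1.19 (SE 0.15, adjusted p = 0.000124). Its fall at 26 against 14 weeks (-0.61 ± 0.15, adjusted p = 0.0133) reached an adjusted p of 0.0501 without 26 weeks replicate 1.

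For each tested member the 3 genes of most similar pattern were taken from 4223 candidates by the root mean square difference in log2 CPM, centred per gene, over the 18 libraries. For Alox5 they were Hiat1 (0.19), Pkm (0.19), a glycolytic enzyme, and Anxa11 (0.21), where the median candidate was at 0.68. Alox5ap was nearest to the unplaced row WI1-1993I8.1 (0.037), then to the glutathione peroxidase Gpx1 (0.14) and the oxidase subunit Cyba (0.15), with a median of 0.74. For Lta4h they were Cebpe, a transcription factor of granulocyte maturation (0.24), Usp39 (0.25) and Anxa1 (0.27), with a median of 0.86. Ptges3 was nearest to the ferritin row Ftl2 (0.32), the mitochondrial pyruvate carrier Mpc1 (0.33) and the ferritin heavy chain Fth1 (0.34), with a median of 0.94. The gene nearest to Ptgs1 was Akirin1 (0.37, median 0.71), to Pla2g4a Anxa11os (0.38, median 0.87) and to Ptgs2 Clec4n (1.32, median 2.31).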

How the data were processed

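The table holds read counts per gene for 18 libraries of splenic neutrophils, deposited by the authors as raw whole numbers. Per the labels' protocols, libraries of polyA RNA (RNeasy Plus Micro) came from Nextera XT, which does not mark strand. Per the submitters' processing notes, the tools were STAR 2.4.2a, Trimmomatic 0.32, DESeq and DESeq2 1.12.3, and HTSeq 0.6.1, and the genome build GRCm38.p4. Their roles, the gene annotation and the strand setting were not given in the sources used here.

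All 18 libraries entered 1 fit with edgeR 4.0.16 in R 4.3.3 (TMM scaling, low-count filter by age, robust quasi-likelihood F test, Benjamini-Hochberg adjustment over 10104 genes, threshold 0.05). The fit compared each pair of ages and, jointly, all 3. CPM use effective library sizes, and the ± after a log2 fold change is its SE. Levels per kb use the exon union of GENCODE M21, which can be longer than any single transcript of a gene. Libraries held at least 5546624 counts, which sets the counting error of genes with few counts, such as Alox15. Same-age libraries differed by more than counting error, so none was merged.

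Replicate numbers were not used to pair the samples. Of 18 same-number pairs 1 correlated above 0.1, which does not exclude a pairing. These numbers are those of the sample titles, and the different numbers in the column names were not checked. Alternatives were other scalings, DESeq2 1.42.0, limma 3.58.1 (voom), other filters, only the ages compared, a replicate block, each library left out and, added after seeing the data, library totals alone, 3 libraries left out together and a gene length correction, for which 98.4% of tested genes had a length. Scripts were tested on simulated data. The members and all lists were chosen with earlier results of these data known. Named in the text are all members, each listed pathway gene that was called, at most 3 others per list by mean level per kb, and the 3 genes most similar to each tested member among those whose log2 CPM averaged 4 or more, of which the first is given for 3 of them. Immunoglobulin, T-cell receptor, mitochondrial and unnamed genes were left out of these candidates. Hpgds and Hpgd were named after their values were seen.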

Additional observations from a re-analysis of the deposited data

Results flagged for a closer look

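Of 24 groups of 6 libraries, 1 for each member and age, 2 held a library far from the rest by Dixon's criterion. With 5 libraries at 0 any count in the other meets it, so the usual chance of about 1 in 20 does not apply. Both were in Alox15: 14 weeks replicate 6 at 0.346 CPM (4 counts) and 26 weeks replicate 1 at 0.118 CPM (1 count), with the other 5 libraries of each age at 0.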

How the results depend on the processing

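Of 606 alternative values for the members' log2 fold changes, 560 kept their direction and side of the threshold, 2 lost a call (Alox5ap under the length correction), 30 gained one and 14 changed sign, all of these in values that were not called. Ptgs1 at 26 against 14 weeks, at -0.034, became 0.0082 under RLE scaling, 0.067 under upper quartile scaling, 0.0082 with DESeq2, 0.033 with limma-voom, 0.074 with the stricter filter and ran from -0.20 to 0.19 without 1 library. Under the length correction, Pla2g4a at 20 against 14 weeks became 0.067 and Ptgs1 at 26 against 20 weeks -0.051.

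At 20 against 14 weeks the members called went from 1 to 4 with DESeq2, 3 with limma-voom, and 2 with the stricter filter or only the ages compared. At 26 against 14 weeks they went from 2 to 5 with limma-voom and 1 under the length correction, and at 26 against 20 weeks from 2 to 4 with library totals only. Without 1 library they ran from 1 to 3, 2 to 3 and 2 to 3 in the 3 pairs, with 4 throughout in the test over all ages. Genes called in all went from 1030 to 1563 with DESeq2 at 20 against 14 weeks, from 1111 to 2633 with limma-voom, 1710 with only the ages compared and 545 under the length correction at 26 against 14 weeks, and from 2321 to 4005 with limma-voom over all ages. Without 1 library they ran from 702 to 1263, 652 to 1544, 1141 to 1911 and 1780 to 2682. The other pathway genes called at 26 against 14 weeks went from 5 to 8 with DESeq2, 13 with limma-voom and 11 with only the ages compared, and without 1 library the 3 pairs gave 11 to 15, 4 to 9 and 11 to 17. The cause was not tested, save that the length correction removes the shift with gene length by construction. The share of all calls that were higher was 48.3%, 49.6% and 50.2% in the 3 pairs, 76.8%, 26.1% and 17.9% under the length correction, 67.5%, 47.1% and 31.4% with library totals only, and 62.0% at 26 against 14 weeks under upper quartile scaling. Those fits moved the median of all genes to 0.23, -0.078 and -0.33, to 0.14, -0.0069 and -0.16, and to 0.14.

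With a replicate block the members called were 1, 2, 2 and 4, the same genes as without it. The block gave 962, 946, 1573 and 2081 genes in all, 13, 5 and 12 other pathway genes, without Ltc4s at 26 against 14 weeks and Ptgr1, Ptger2 and Zfp36 at 26 against 20 weeks, and 0.034 for Ptgs1 at 26 against 14 weeks. Same-numbered libraries correlated at -0.053 to 0.14 and 4 of 18 correlated best with their own number. The numbers were thus not used to pair, though a pairing is not excluded.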
